A study of Mus musculus with 8 samples.

Results

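Thalamic tissue of mice needled at the acupoints GB34 and LR3 was set against that of mice given MPTP alone, using all probe sets of a whole-transcript array that carried a gene symbol. The members were chosen by the titles of the samples. They were 4 of the 8 arrays in the series, 2 from mice given MPTP and needled at the acupoints and 2 from mice given MPTP and not needled. All mice were male C57BL/6, an inbred laboratory strain, aged 6 weeks at the start and labelled adult, and the labels name no genetic change in any group. Mice of both groups compared received MPTP into the peritoneum at 20 mg/kg (free base, in saline) every 24 hr for 4 weeks. Acupoint mice were held by hand, and needles were inserted on both sides of the body 2 hr after MPTP, to 1 mm at LR3 on the foot and 3 mm at GB34 on the lower leg. The needles were turned at 2 spins per sec for 15 sec, in 14 sessions 48 hr apart. The other 4 arrays came from 2 mice given saline (control) and 2 mice given MPTP and needled to 3 mm at both hips (non-acupoint). No array came from mice needled without MPTP, so the needling was seen only on top of the toxin. The labels do not say whether the MPTP mice were held in the same way, and handling and needling cannot be told apart in this comparison. Each array held RNA from thalamic tissue of both sides, and the labels name 2 brains per group. Pairs of values below are always mouse 1 and mouse 2 of a group.

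MPTP is a toxin precursor that glia convert with monoamine oxidase B to a cation. The dopamine transporter carries this cation into dopaminergic neurons, where it blocks complex I of the respiratory chain. The neurons most at risk lie in the substantia nigra of the midbrain, just below and behind the thalamus. The thalamus itself receives the output of the basal ganglia and relays it to the cortex through glutamatergic projection neurons, under inhibition from GABA-releasing neurons. It borders the habenula, the hypothalamus and the choroid plexus of the third ventricle, so a dissected block can carry some of each. GB34 and LR3 are points on the gallbladder and liver channels of traditional acupuncture.

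One array decided much of this comparison. MPTP mouse 1 correlated at r = 0.908 with MPTP mouse 2, and at 0.982 with non-acupoint mouse 1, across the probe sets tested. MPTP mouse 2 correlated at 0.992 and 0.987 with the acupoint mice, which correlated at 0.993 with each other. Between the 2 MPTP mice, 1780 probe sets lay at least 2-fold apart, against 13 between the acupoint mice and 1 between the controls. The acupoint mean lay at least 2-fold from MPTP mouse 1 in 1278 probe sets and from MPTP mouse 2 in 25. In 1 probe set it lay that far from both in one direction, that of Nmbr, the receptor for neuromedin B. List medians are therefore given over all 8 arrays and again over 6, without MPTP mouse 1 and non-acupoint mouse 1. The difference of a gene is given again over 6 arrays where that moves it by over 1.5 times or turns its sign. The 8-array difference is the mean of the differences from each MPTP mouse. Over 6 arrays the MPTP group is MPTP mouse 2 alone, and a lone mouse is taken to vary like control and acupoint mice. The median SD over probe sets was 0.28 in MPTP mice, 0.07 in acupoint mice and 0.06 in controls. Counts by p-value over 6 arrays therefore leave out the spread between MPTP mice. What set the 2 arrays apart was not tested.

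**Figure D1:**
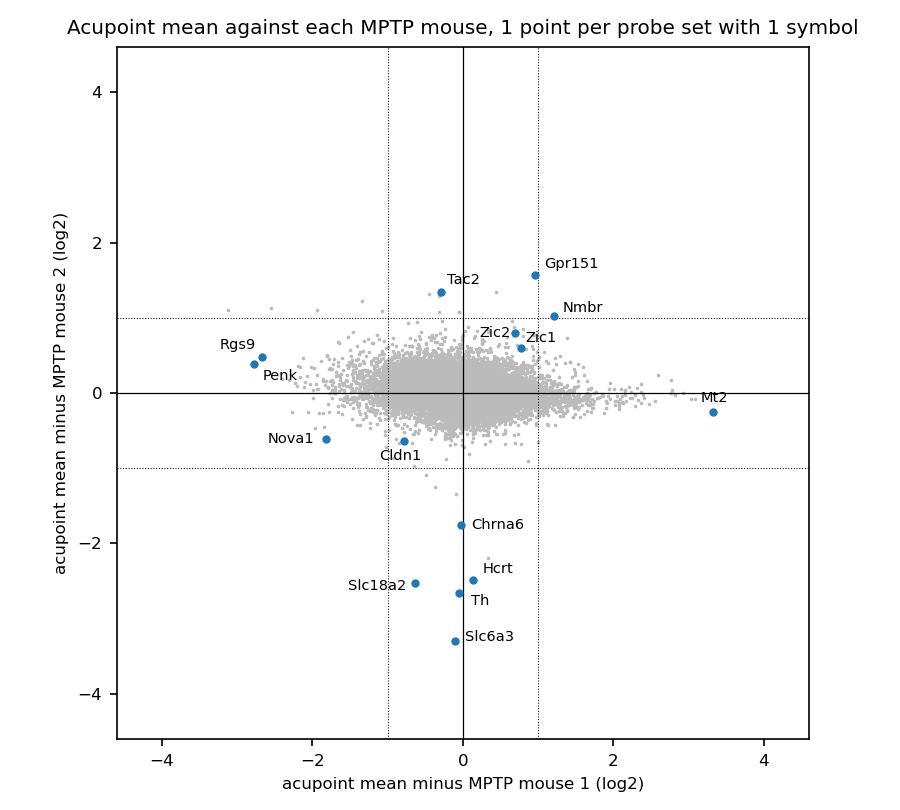
Each grey point is a probe set with 1 gene symbol, placed by the acupoint mean minus MPTP mouse 1 (x axis, log2) and minus MPTP mouse 2 (y axis, log2). Dotted lines mark a 2-fold difference, and blue points are labelled genes. The cloud is wide along x and narrow along y, and genes of dopaminergic neurons (Slc6a3, Th, Chrna6) lie near 0 on x and far below 0 on y.

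No probe set of the 15791 tested passed an adjusted p of 0.05 (limma with Benjamini-Hochberg adjustment, smallest adjusted p = 0.889), so percent called was 0%. An unadjusted p under 0.05 was met by 216 probe sets (1.37%), of which 106 were higher (0.671%) and 110 lower (0.697%) in acupoint mice. The difference was above 0 in 51.3% of probe sets, with a median of 0.007 on the log2 scale. With 2 arrays a group, the smallest two-sided p of an exact permutation test is 0.33. Leaving out each mouse in turn, the count of 216 became 62 to 4133, with the most without MPTP mouse 2, 378 without MPTP mouse 1, 80 and 62 without acupoint mice 1 and 2, 78 without either control and 392 without either non-acupoint mouse. Without MPTP mouse 1 and non-acupoint mouse 1 together, 1582 probe sets were higher (10%) and 854 lower (5.41%) at that threshold. Both acupoint arrays lay above both MPTP arrays in 14.5% of probe sets and below both in 12.5%, so 27.1% did not overlap. Counts of members that do not overlap are to be read against these shares. The gene lists were chosen with earlier results of these data known, so such counts describe and test nothing. Differences are acupoint minus MPTP on the log2 scale, with the standard error of the limma fit. Since no gene passed, genes are described by the level on each array and by whether the groups overlap.

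The tissue carried the markers of its label. Slc17a6, the vesicular glutamate transporter of thalamic projection neurons, stood at 11.23 and 11.16 in control mice, 10.97 and 11.41 in MPTP mice, 11.67 and 11.69 in acupoint mice and 11.07 and 11.59 in non-acupoint mice. Prkcd, a protein kinase C of sensory relay nuclei, stood at 11.47 and 11.88 in MPTP mice against 11.94 and 11.84 in acupoint mice. These levels lie far above 5.63, the mean level at which the brightness filter removed the dimmest 40% of probe sets. Markers of neighbouring regions were present too, among them Th, a midbrain gene, in controls, Ttr of the choroid plexus and Penk of the striatum.

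Dopaminergic neuron genes were lower in acupoint mice in 11 of the 15 tested, of 18 listed. Their median difference was -0.67, and the groups did not overlap in 7, all of them lower. Over all genes tested, 1 probe set each, the median was 0.003 and 12.9% were lower without overlap. Without MPTP mouse 1 and non-acupoint mouse 1 the median was -0.48, and 3 genes, Slc6a3, Th and Chrna6, were the only probe sets to pass (0.019% of all lower and 0% higher). In that fit the MPTP group was MPTP mouse 2 alone, so the pass leaves out the spread between MPTP mice. In Slc6a3 the SD of the 2 MPTP mice was 2.26. The pass therefore describes MPTP mouse 2 and cannot decide whether the groups differ. In bulk tissue, fewer cells of a type and less RNA per cell cannot be told apart. How much midbrain each sample held was not measured, and its part in these values was not tested. The list level, the mean of its genes on an array relative to the 8 arrays, was -0.38 and 0.42 in MPTP mice against -0.57 and -0.57 in acupoint mice. It was 0.85 and 0.71 in controls and -0.27 and -0.18 in non-acupoint mice. MPTP mouse 2 was thus near the controls, and MPTP mouse 1 was near the acupoint mice. The median was -0.104 without MPTP mouse 2 and -0.401 without acupoint mouse 1.

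Th encodes tyrosine hydroxylase, the rate-limiting enzyme of dopamine synthesis. It stood at 9.34 and 9.10 in control mice, 6.15 and 8.75 in MPTP mice, 5.97 and 6.22 in acupoint mice and 6.72 and 7.40 in non-acupoint mice. The difference was -1.36 ± 0.76, and the groups overlapped because MPTP mouse 1 lay between the acupoint mice. Without the 2 arrays it was -2.66. Ddc, the decarboxylase that makes dopamine from L-DOPA, stood at 7.23 and 8.48 in MPTP mice against 7.16 and 7.12 in acupoint mice. Its levels were 8.91 and 8.64 in controls and 7.14 and 7.79 in non-acupoint mice. The difference was -0.71 ± 0.41 over 8 arrays and -1.34 over 6. In both enzymes MPTP mouse 2 was high and the other 3 arrays of the comparison were low.

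Slc18a2, the vesicular monoamine transporter that loads dopamine into vesicles, stood at 9.24 and 8.95 in control mice, 6.34 and 8.23 in MPTP mice, 6.06 and 5.34 in acupoint mice and 7.03 and 6.94 in non-acupoint mice. Both acupoint mice lay below all 6 other arrays, with a difference of -1.59 ± 0.58, or -2.53 over 6 arrays, and no overlap with the MPTP mice. Slc6a3, the dopamine transporter through which the MPTP cation enters the neuron, stood at 9.96 and 9.83 in control mice, 6.20 and 9.39 in MPTP mice, 6.10 and 6.09 in acupoint mice and 6.64 and 7.83 in non-acupoint mice. The acupoint mice lay just below MPTP mouse 1 and far below MPTP mouse 2, and the group means were 7.79 ± 2.26 and 6.09 ± 0.01 (SD, n = 2). The difference was -1.70 ± 0.95 over 8 arrays and -3.30 over 6. Chrna6, a nicotinic receptor subunit of dopaminergic terminals, stood at 5.10 and 6.82 in MPTP mice against 5.02 and 5.12 in acupoint mice. The groups overlapped, and the 6-array difference was -1.75. The acupoint levels of Chrna6 lie under the 5.63 of the brightness filter, where differences of dim probe sets are compressed.

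The promoters of Th and Slc6a3 are shown because, among the dopaminergic genes, they lay furthest apart between MPTP mouse 2 and the acupoint mice. Both are the 250 bases before the start of the gene, 5′ to 3′, from RefSeq on build GRCm38.p6. The Th window is chr7:142899996-142900245 on the minus strand, and the Slc6a3 window is chr13:73536497-73536746 on the plus strand. Capitals mark the cAMP response element TGACGTCA, the AP-1-like motif TGANTCA and the E-box CACGTG, searched on both strands.
Th: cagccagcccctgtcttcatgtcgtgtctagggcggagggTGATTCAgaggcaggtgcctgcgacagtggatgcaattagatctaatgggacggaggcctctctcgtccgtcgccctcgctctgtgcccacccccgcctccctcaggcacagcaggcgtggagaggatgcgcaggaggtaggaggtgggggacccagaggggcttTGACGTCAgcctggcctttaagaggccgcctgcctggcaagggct
Slc6a3: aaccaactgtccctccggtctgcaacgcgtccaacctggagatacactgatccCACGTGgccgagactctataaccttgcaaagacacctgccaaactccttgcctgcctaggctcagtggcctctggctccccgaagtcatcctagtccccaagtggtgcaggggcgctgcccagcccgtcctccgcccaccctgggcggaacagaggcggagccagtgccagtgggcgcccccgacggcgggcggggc
The Th window holds a cAMP response element starting 45 bases before the start, and an AP-1-like match 210 bases before it. The Slc6a3 window holds an E-box 197 bases before its start and no match to the other motifs. Of 32851 RefSeq promoter windows of this length, 1.55% hold TGACGTCA, 6.75% hold TGANTCA and 6.02% hold CACGTG. A match describes these letters only, since no binding was measured.

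**Figure D2:**
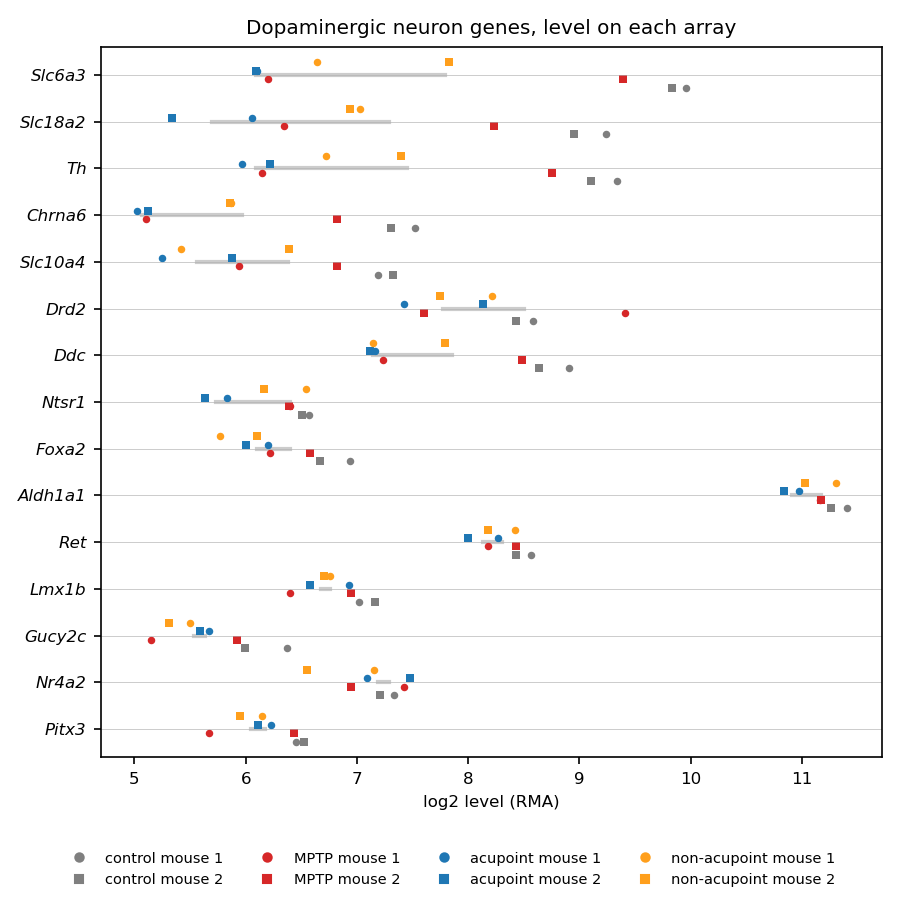
The log2 level (x axis) of the 15 dopaminergic neuron genes tested (rows), with 1 marker per array, circles for mouse 1 and squares for mouse 2, and a grey bar from the MPTP to the acupoint mean. In the upper rows MPTP mouse 2 lies with the controls on the right, and MPTP mouse 1 lies with both acupoint mice on the left. In Drd2 MPTP mouse 1 is the highest of the 8.

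Not all members of the list followed that order. Ntsr1, the neurotensin receptor of dopaminergic and other neurons, was even between the MPTP mice at 6.40 and 6.39, against 5.83 and 5.63 in acupoint mice. Its acupoint levels lay below all 6 other arrays, with a difference of -0.67 ± 0.17 over 8 arrays and -0.66 over 6. Foxa2, a transcription factor that dopaminergic neurons need, stood at 6.22 and 6.58 and 6.20 and 6.00. The retinaldehyde dehydrogenase gene Aldh1a1 stood at 11.16 and 11.17 and 10.97 and 10.84. The transcription factor genes Pitx3 (0.12 ± 0.25, or -0.26 over 6 arrays), Nr4a2 (0.10 ± 0.26, or 0.33 over 6 arrays) and Lmx1b (0.08 ± 0.22, or -0.19 over 6 arrays) had 8-array differences smaller than their errors. Ret, the receptor for glial neurotrophic factors, differed by -0.17 ± 0.17, or -0.30 over 6 arrays, and overlapped. Drd2, the dopamine D2 receptor of both midbrain and striatal neurons, stood at 9.41 and 7.60 in MPTP mice against 7.42 and 8.13 in acupoint mice. Here MPTP mouse 1 was high and MPTP mouse 2 low, the reverse of Th.

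Striatal genes followed MPTP mouse 1. Of 15 tested, 13 were lower in acupoint mice, with a median of -0.37 over 8 arrays and 0.17 over 6. Their list level was 0.96 and -0.48 in MPTP mice against -0.61 and 0.16 in acupoint mice, between -0.15 and 0.13 on the other 4 arrays. The median was -1.055 without MPTP mouse 2 and -0.091 without acupoint mouse 1. Penk, the enkephalin precursor of indirect pathway neurons, stood at 12.40 and 9.24 in MPTP mice against 8.52 and 10.74 in acupoint mice. Drd1, the D1 receptor of direct pathway neurons, stood at 8.63 and 7.06 and 6.88 and 8.07. The tachykinin gene Tac1 stood at 9.61 and 8.11 and 7.32 and 8.71. Acupoint mouse 1 and MPTP mouse 2 were low in these genes, and MPTP mouse 1 and acupoint mouse 2 were high, so the groups overlapped. Only Syndig1l, at 7.57 and 7.53 and 7.66 and 7.57, did not overlap among the striatal members. The cortical and hippocampal list had a median of -0.13 over 8 arrays and 0.23 over 6. Its members Slc17a7, a vesicular glutamate transporter, at 0.19 ± 0.14, and Fibcd1, at 0.18 ± 0.14, did not overlap.

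Hypothalamic genes were lower in 11 of 14 tested over 8 arrays, with a median of -0.20, and in all 14 over 6 arrays, with a median of -0.39. Their levels differed between mice of one group, and the median was 0.131 without MPTP mouse 2 and 0.096 without acupoint mouse 1. Hcrt, the orexin precursor, stood at 6.85 and 9.46 in MPTP mice against 5.55 and 8.41 in acupoint mice. Pmch, the precursor of melanin-concentrating hormone, stood at 7.76 and 10.29 and 6.61 and 9.58. Both peptides are made in the lateral hypothalamus, and in both genes mouse 1 was the lower in each group given MPTP. Members that did not overlap were Trh, which encodes thyrotropin-releasing hormone (7.39 and 7.37 and 6.96 and 7.21), the transcription factor gene Sim1 (-0.32 ± 0.24, or -0.54 over 6 arrays) and Ghrh, which encodes growth hormone-releasing hormone (-0.29 ± 0.20).

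Habenula genes were higher in 7 of 10 tested, with a median of 0.44 over 8 arrays and 0.91 over 6. The groups did not overlap in 3, all higher, where 14.8% of all genes were higher without overlap. Gpr151, an orphan receptor that marks habenular neurons, stood at 5.15 and 5.19 in control mice, 6.56 and 5.95 in MPTP mice, 7.14 and 7.91 in acupoint mice and 4.93 and 5.62 in non-acupoint mice. Its acupoint levels were the highest of the 8 arrays, and the difference was 1.27 ± 0.35, or 2.42-fold. Its control and non-acupoint levels lie under the 5.63 of the brightness filter, where differences are compressed. Gpr151 passed that filter only with the acupoint arrays counted in the mean. Nwd2 stood at 8.18 and 7.27 in MPTP mice against 8.29 and 8.94 in acupoint mice. The G protein subunit gene Gng8 stood at 6.65 and 6.07 and 6.68 and 6.92. Both also lay above all 6 other arrays. In the nicotinic subunit genes the groups overlapped, with Chrna3 at 7.50 and 5.73 and 6.68 and 7.41, and Chrnb4 at 7.0 and 6.01 and 6.63 and 6.89. The tachykinin gene Tac2 stood at 8.25 and 6.61 and 7.54 and 8.37. In these 3 genes MPTP mouse 1 was near acupoint mouse 2, and MPTP mouse 2 was the lowest of the 4. The list level was 0.47 and -0.36 in MPTP mice against 0.21 and 0.71 in acupoint mice, so it too overlapped. The median was -0.145 without MPTP mouse 2 and 0.114 without acupoint mouse 2. The share of habenula in each sample was not measured, and its part in these values was not tested.

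Thalamic projection neuron genes were higher in acupoint mice in 15 of 17 tested. Their median difference was 0.27 over 8 arrays and 0.29 over 6. The groups did not overlap in 10, all higher, and 8 of these lay above all 6 other arrays, where 3.77% of all probe sets did. Because the list was chosen with earlier results of these data known, that contrast is no test of enrichment. The list level was 0.06 and 0.06 in MPTP mice, 0.36 and 0.33 in acupoint mice, 0.20 and 0.09 in non-acupoint mice and -0.60 and -0.49 in controls. Both MPTP mice were even here, and both lay below both acupoint mice. Leaving out each mouse in turn, the median stayed between 0.232 and 0.357.

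Rgs16, a regulator that speeds the shut-off of G protein signals and is enriched in thalamus, stood at 9.33 and 9.57 in control mice, 9.35 and 9.65 in MPTP mice, 10.21 and 10.34 in acupoint mice and 9.76 and 10.10 in non-acupoint mice. The difference was 0.77 ± 0.19, and the acupoint mice were the highest on the 8 arrays. Vav3 stood at 9.07 and 8.63 in MPTP mice against 9.31 and 9.35 in acupoint mice (0.48 ± 0.17). Gbx2, a homeobox factor that specifies thalamic neurons, stood at 7.14 and 7.12 and 7.53 and 7.46 (0.37 ± 0.15). The adenylyl cyclase gene Adcy1 stood at 9.89 and 10.22 and 10.48 and 10.36, and Adcy8, another calcium-stimulated adenylyl cyclase from outside the list, at 8.40 and 8.56 and 8.85 and 8.99. The nuclear receptor gene Rora (0.27 ± 0.14, or 0.12 over 6 arrays) and the phosphatase gene Ptpn3 (0.30 ± 0.15) also lay above all 6 other arrays. Tcf7l2, the transcription factor that maintains thalamic identity, overlapped, at -0.07 ± 0.26, or 0.15 over 6 arrays. Prkcd had a difference of 0.21 ± 0.17 over 8 arrays and 0.01 over 6. The higher values were therefore not common to all markers of these neurons. Genes of the reticular and inhibitory neuron list had a median of -0.07 over 8 arrays and -0.03 over 6, with 3 of 9 higher and 1 of 9, the somatostatin gene Sst (-0.45 ± 0.30, or -0.05 over 6 arrays), lower without overlap.

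Zic genes encode zinc finger transcription factors of the developing brain that stay active in cerebellar and some other adult neurons. All 4 tested, of 5 listed, were higher in acupoint mice, with a median of 0.59 over 8 arrays and 0.81 over 6. Zic1 stood at 9.26 and 9.41 in control mice, 9.80 and 9.70 in MPTP mice, 10.45 and 10.54 in acupoint mice and 9.77 and 9.99 in non-acupoint mice. The group means were 9.75 ± 0.06 and 10.50 ± 0.07 (SD, n = 2), a difference of 0.75 ± 0.14 or 1.68-fold. Zic2 stood at 7.69 and 7.76 in control mice, 8.01 and 8.19 in MPTP mice, 8.74 and 8.84 in acupoint mice and 7.93 and 8.26 in non-acupoint mice, a difference of 0.69 ± 0.16. In both genes the acupoint mice were the highest of the 8 arrays, and the MPTP mice lay above the controls. Zic4 stood at 6.86 and 6.07 in MPTP mice against 6.74 and 7.05 in acupoint mice, and Zic5 at 7.73 and 6.13 and 7.14 and 7.70. In both genes MPTP mouse 1 lay above acupoint mouse 1, and the groups overlapped. The 2 probe sets of Zic5 disagreed in sign, and its values come from the brighter. The list median was 0.368 without MPTP mouse 2. Set against non-acupoint mice, the acupoint mice were higher by 0.62 in Zic1 and 0.70 in Zic2.

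The starts of Zic1 and Zic4 lie 3204 bases apart on chromosome 9, on opposite strands, at positions 91365768 and 91368972 of GRCm38.p6. The Zic1 promoter is shown as that of the gene with the smallest unadjusted p among those higher. The window is chr9:91365769-91366018 on the minus strand, in the same form as above.
Zic1: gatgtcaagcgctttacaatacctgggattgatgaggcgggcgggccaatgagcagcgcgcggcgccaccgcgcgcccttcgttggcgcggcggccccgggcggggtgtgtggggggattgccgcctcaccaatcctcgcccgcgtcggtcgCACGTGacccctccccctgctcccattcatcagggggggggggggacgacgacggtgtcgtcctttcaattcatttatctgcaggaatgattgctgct
It holds 1 E-box, 98 bases before the start, and neither of the other motifs.

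**Figure D3:**
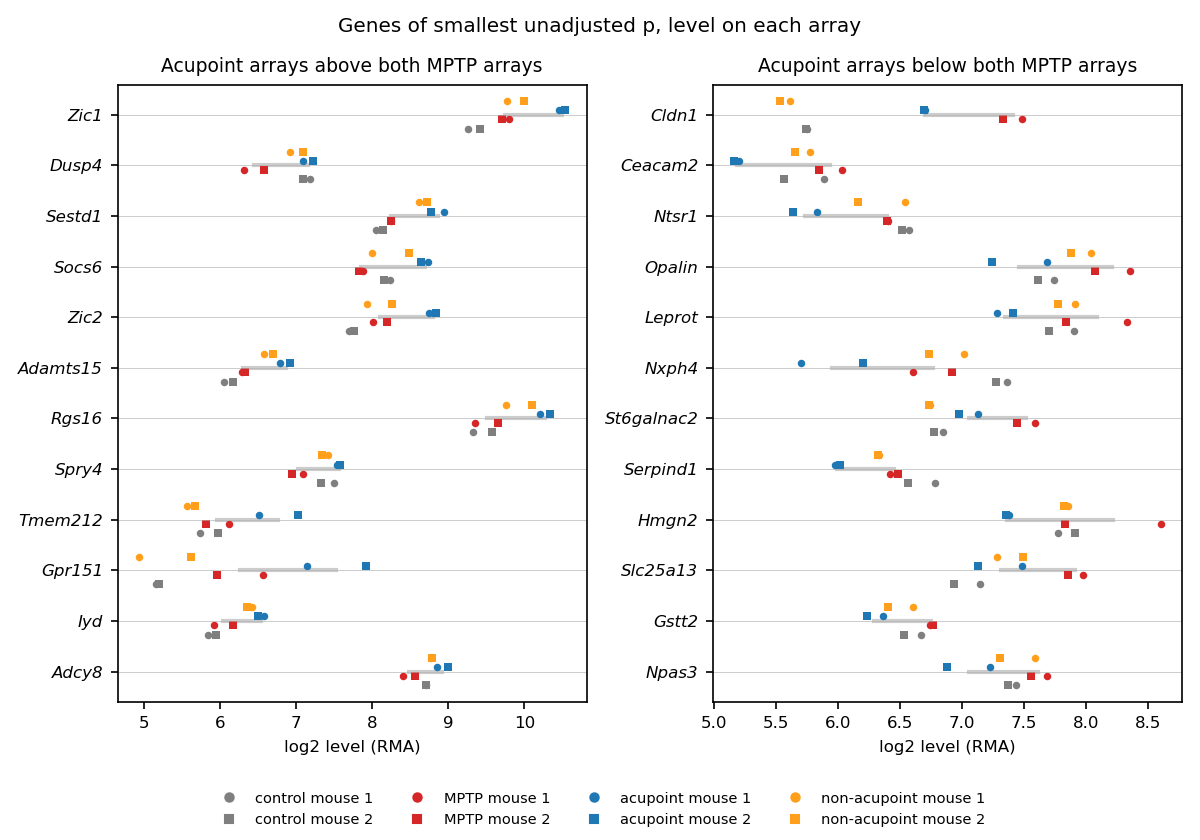
The log2 level (x axis) of the 12 genes of smallest unadjusted p on each side (rows), with 1 marker per array, circles for mouse 1 and squares for mouse 2, and a grey bar from the MPTP to the acupoint mean. By the choice of genes, both acupoint arrays lie above (left panel) or below (right panel) both MPTP arrays. Gpr151 and Zic1 have their acupoint arrays to the right of every other array, while Cldn1 has control and non-acupoint arrays further left.

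MAP kinase feedback genes are switched on by the ERK pathway and shut it off again, as dual-specificity phosphatases (Dusp), Sprouty (Spry) and Spred proteins. Of 13 tested, 10 were higher in acupoint mice, 6 of them without overlap, and 1 was lower without overlap, with a median of 0.15 over 8 arrays and 0.18 over 6. An unadjusted p under 0.05 (limma) was met by 4, where 1.37% of all probe sets met it. This list too was chosen with earlier results known, so the contrast is no test of enrichment. Dusp4 stood at 7.18 and 7.09 in control mice, 6.31 and 6.57 in MPTP mice, 7.09 and 7.22 in acupoint mice and 6.91 and 7.09 in non-acupoint mice. The MPTP mice were the lowest of the 8 arrays and the acupoint mice lay at the level of controls, with a difference of 0.72 ± 0.15. Spry4 stood at 7.49 and 7.33 in control mice, 7.09 and 6.94 in MPTP mice, 7.54 and 7.58 in acupoint mice and 7.42 and 7.34 in non-acupoint mice, again with the MPTP mice lowest, and a difference of 0.54 ± 0.13. Dusp1 stood at 8.65 and 8.57 in control mice, 8.62 and 8.64 in MPTP mice, 8.91 and 9.28 in acupoint mice and 9.14 and 9.31 in non-acupoint mice, and here both needled groups lay above both MPTP mice and both controls. Dusp6, a phosphatase selective for ERK, stood at 8.35 and 8.18 in MPTP mice, 8.54 and 8.69 in acupoint mice and 8.48 and 8.66 in non-acupoint mice. Spred3 (-0.07 ± 0.13), Spry2 (0.00 ± 0.19, or 0.26 over 6 arrays) and Etv4, an ERK-induced transcription factor gene (-0.06 ± 0.18, or -0.27 over 6 arrays), were not higher over 8 arrays. Against non-acupoint mice, Dusp4 differed by 0.16, Dusp1 by -0.13 and Dusp6 by 0.05. The comparison with MPTP and that with non-acupoint mice share the acupoint arrays.

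The Dusp1 promoter is shown because cAMP response elements in it are a textbook route by which neuronal activity switches the gene on. The window is chr17:26508473-26508722 on the minus strand of GRCm38.p6, from RefSeq.
Dusp1: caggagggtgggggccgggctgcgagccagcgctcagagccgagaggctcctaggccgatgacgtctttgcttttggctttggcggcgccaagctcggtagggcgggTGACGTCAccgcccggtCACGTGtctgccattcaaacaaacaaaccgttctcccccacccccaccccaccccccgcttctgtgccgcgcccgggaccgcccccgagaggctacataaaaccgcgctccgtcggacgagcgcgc
It holds a cAMP response element starting 143 bases before the start and an E-box 126 bases before it.

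Immediate early genes, which neurons switch on within minutes of activity, were split over 8 arrays. Of 16 tested, 9 were higher, 7 of them without overlap, and 2 were lower without overlap, with a median of 0.06 over 8 arrays and 0.14 over 6. Of all genes, 14.8% were higher and 12.9% lower without overlap. Over 6 arrays 12 of 16 were higher. Fos, the standard marker of recent activity, stood at 6.57 and 6.51 in MPTP mice, 6.79 and 6.98 in acupoint mice, 7.13 and 6.94 in controls and 6.56 and 7.21 in non-acupoint mice. The difference was 0.34 ± 0.23, and the acupoint mice lay within the range of controls and non-acupoint mice. Jun (0.41 ± 0.25), Ier5 (0.50 ± 0.23), Fosl2 (0.41 ± 0.20, or 0.17 over 6 arrays) and Arc, a gene of synaptic plasticity (0.27 ± 0.16), did not overlap either. Egr1 overlapped at -0.01 ± 0.14, or 0.05 over 6 arrays, and Egr3 and Fosb were lower without overlap, at -0.24, or -0.03 over 6 arrays, and -0.18. Of the 8 SOCS genes, which curb cytokine receptor signals, with medians of 0.04 over 8 arrays and 0.01 over 6, Socs6 stood at 8.23 and 8.15 in control mice, 7.88 and 7.83 in MPTP mice, 8.73 and 8.64 in acupoint mice and 8.00 and 8.48 in non-acupoint mice. Its difference was 0.83 ± 0.18 over 8 arrays and 0.86 over 6, with the acupoint mice highest and non-acupoint mouse 2 close to them. The other 7 lay between -0.10 and 0.19.

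Among receptors of fast inhibition, 9 of 14 GABA receptor genes were higher, 7 of them without overlap, and 3 were lower without overlap. Among all genes, 14.8% were higher and 12.9% lower without overlap. The median was 0.07 over 8 arrays and 0.17 over 6. Gabra4 and Gabrd encode subunits of the extrasynaptic receptors that give thalamic relay neurons their tonic inhibition. Gabra4 stood at 9.84 and 9.83 in control mice, 10.36 and 10.42 in MPTP mice, 10.87 and 10.90 in acupoint mice and 10.29 and 10.64 in non-acupoint mice, a difference of 0.50 ± 0.15, with the acupoint mice highest. Gabrd stood at 7.77 and 8.12 in control mice, 7.60 and 8.81 in MPTP mice, 9.09 and 9.09 in acupoint mice and 7.59 and 8.84 in non-acupoint mice, where MPTP mouse 1 and non-acupoint mouse 1 were low and acupoint mice again highest. Its difference was 0.88 ± 0.51 over 8 arrays and 0.27 over 6. Gabrb2, the usual partner subunit, differed by 0.20 ± 0.14, or 0.13 over 6 arrays. Gabrq, a subunit of hypothalamic and brainstem neurons, was lower (-0.39 ± 0.22), below all 6 other arrays.

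Glutamate receptor genes were higher in 7 of 20 over 8 arrays and in 17 of 20 over 6, with medians of -0.07 and 0.25. Grm2, a presynaptic metabotropic receptor, stood at 8.12 and 8.19 in control mice, 8.45 and 7.97 in MPTP mice, 8.79 and 8.78 in acupoint mice and 8.35 and 8.32 in non-acupoint mice, above all other arrays in acupoint mice and 0.58 ± 0.18 above MPTP mice. Grm7 (0.25 ± 0.13) and Grm4 (0.12 ± 0.15, or 0.20 over 6 arrays), of the other presynaptic group, also lay above all 6 other arrays. Among T-type calcium channels, which drive burst firing of the thalamus, Cacna1g of relay neurons was higher at 8.71 and 9.07 and 9.34 and 9.18. Cacna1h was lower, at 7.14 and 6.86 and 6.56 and 6.59, without overlap. The HCN pacemaker channel gene Hcn2 overlapped, at 0.31 ± 0.31, or -0.11 over 6 arrays.

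Receptors for monoamines and acetylcholine were lower in 15 of 23, with a median of -0.18 over 8 arrays and -0.05 over 6. Without overlap 7 were lower and 3 higher, beside 12.9% and 14.8% of all genes. The 4 members of smallest unadjusted p were serotonin receptor genes, and 2 members of the list had an unadjusted p under 0.05 (limma). Htr2a stood at 7.70 and 7.12 in MPTP mice against 6.70 and 6.89 in acupoint mice, below all other arrays, a difference of -0.62 ± 0.22, or -0.32 over 6 arrays. Htr1d (-0.66 ± 0.26, or -0.27 over 6 arrays) and Htr6 (-0.35 ± 0.16) were lower too, while Htr7, a thalamic serotonin receptor, was higher (0.26 ± 0.14). The acupoint levels of Htr1d, 5.16 and 5.37, lie under the 5.63 of the brightness filter. Of the opioid list, 7 of 8 were lower over 8 arrays and 4 of 8 over 6, with medians of -0.16 and -0.06. The mu receptor gene Oprm1 was higher at 0.15 ± 0.13. Of the list for adenosine, a transmitter studied in needling, 5 of 7 were higher over 8 arrays and 3 of 7 over 6, with medians of 0.04 and -0.05, and 1, the nucleoside transporter gene Slc29a1 (0.19 ± 0.14), did not overlap.

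Choroid plexus genes, which form the epithelium that secretes cerebrospinal fluid, were lower in 15 of 17, with a median of -0.28 over 8 arrays and -0.29 over 6. The list level was 1.16 and 1.16 in MPTP mice, 0.60 and 1.13 in acupoint mice, -0.56 and -0.51 in controls and -1.51 and -1.47 in non-acupoint mice. Acupoint mouse 2 lay close to the MPTP mice, and acupoint mouse 1 was lower. Without acupoint mouse 1 the median was -0.038, and without acupoint mouse 2 it was -0.575. Kcnj13, a potassium channel of that epithelium, stood at 11.07 and 10.13 in MPTP mice against 9.40 and 10.02 in acupoint mice, and the carbonic anhydrase gene Car12 at 9.17 and 8.64 and 7.84 and 8.43. Ttr, the thyroid hormone carrier transthyretin, overlapped at 12.91 and 13.65 and 13.36 and 13.53. Against non-acupoint mice the list differed far more, by a median of 2.05.

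Cldn1, a tight junction protein of barrier epithelia, had the smallest unadjusted p among probe sets with 1 symbol. It stood at 5.75 and 5.74 in control mice, 7.48 and 7.33 in MPTP mice, 6.70 and 6.69 in acupoint mice and 5.61 and 5.53 in non-acupoint mice. The groups were even within themselves and did not overlap, with means of 7.40 ± 0.11 in MPTP mice against 6.70 ± 0.00 in acupoint mice (SD, n = 2) and a difference of -0.71 ± 0.13. From highest to lowest its group means ran MPTP, acupoint, control, non-acupoint, which is also the order of the choroid plexus list level. St6galnac2, a sialyltransferase gene, had the same order, at 7.59 and 7.44 in MPTP and 7.13 and 6.97 in acupoint mice. The part of choroid plexus tissue in these values was not tested. Ependymal genes of motile cilia were higher in 6 of 9 (median 0.17 over 8 arrays and 0.31 over 6, or -0.252 without MPTP mouse 2 and -0.119 without acupoint mouse 2). Among them were Tmem212, at 6.11 and 5.81 and 6.51 and 7.02, and Foxj1, the master regulator of motile cilia, at 6.04 and 6.45 and 6.50 and 6.89. Meningeal fibroblast genes were higher in 7 of 11 (median 0.12 over 8 arrays and 0.05 over 6). Of these, 4 did not overlap, where 14.8% of all genes were higher without overlap. The growth factor gene Igf2 was the only member lower without overlap (-0.48 ± 0.15). Of the endothelium and pericyte list, 5 of 12 were higher over 8 arrays and 11 of 12 over 6, with medians of -0.03 and 0.24. Its members included the clotting factor carrier Vwf above all other arrays (0.30 ± 0.13) and Cldn5, the tight junction protein of brain vessels, at 0.75 ± 0.44, or 0.22 over 6 arrays.

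**Figure D4:**
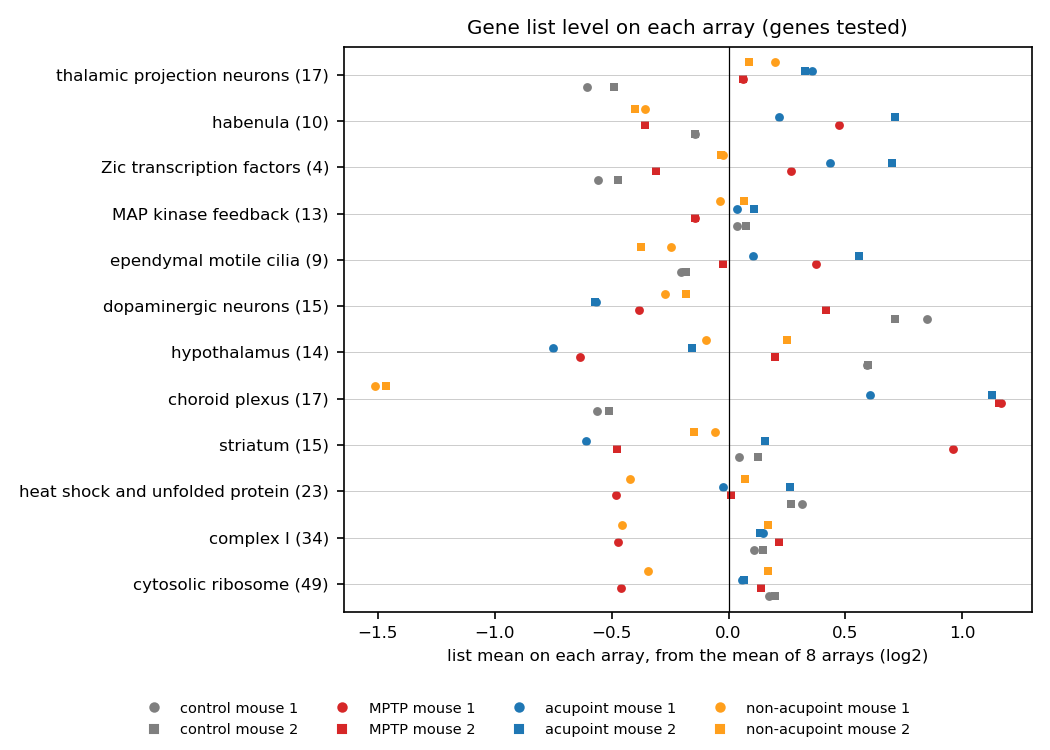
The mean level of 12 gene lists (rows) on each array, relative to the mean of the 8 arrays (x axis, log2), with circles for mouse 1 and squares for mouse 2. Both acupoint arrays lie above both MPTP arrays in thalamic projection neurons, Zic and MAP kinase feedback genes, and in the striatum, complex I and ribosome rows MPTP mouse 1 stands away from the other arrays of the comparison.

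Glial genes gave small medians. Astrocyte genes were higher in 11 of 16, with a median of 0.14 over 8 arrays and 0.06 over 6. Without overlap 7 were higher and 2 lower, beside 14.8% and 12.9% of all genes. Gfap, the intermediate filament of reactive astrocytes, overlapped at 8.38 and 8.55 in MPTP mice against 8.31 and 8.52 in acupoint mice. Serpina3n, a protease inhibitor of reactive astrocytes, stood at 8.67 and 8.02 and 7.69 and 7.70, below all 6 other arrays. The glutamate transporter gene Slc1a2 stood at 10.79 and 11.57 and 11.73 and 11.66, with MPTP mouse 1 low. Microglial and complement genes were lower in 9 of 14 over 8 arrays and in 7 of 14 over 6 (medians -0.04 and 0.02). Aif1, the microglial marker IBA1, overlapped (0.08 ± 0.21, or 0.17 over 6 arrays), as did C1qa (0.32 ± 0.28, or 0.00 over 6 arrays), and the lysosomal gene Cd68 was lower at 8.42 and 6.97 and 6.71 and 6.91, mainly through MPTP mouse 1.

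Oligodendrocyte and myelin genes were lower in 9 of 17 over 8 arrays and in 16 of 17 over 6, with medians of -0.03 and -0.16, and 0.226 without MPTP mouse 2. Opalin, a membrane protein of mature oligodendrocytes, stood at 7.74 and 7.61 in control mice, 8.35 and 8.07 in MPTP mice, 7.68 and 7.24 in acupoint mice and 8.04 and 7.88 in non-acupoint mice, a difference of -0.75 ± 0.19. The MPTP mice were the highest of the 8 arrays. Mbp, myelin basic protein, stood at 11.62 and 11.67 in MPTP mice against 11.47 and 11.53 in acupoint mice, below all 6 other arrays by a small margin (-0.15 ± 0.12). The myelin gene Mobp (-0.21 ± 0.13, or -0.13 over 6 arrays) and the transcription factor gene Myrf (-0.53 ± 0.28, or -0.15 over 6 arrays) did not overlap either. In precursors, Gpr17 was higher (0.40 ± 0.20) and Enpp6, a gene of newly forming oligodendrocytes, lower (-0.68 ± 0.32, or -0.22 over 6 arrays), both without overlap, and the list median was -0.11 over 8 arrays and 0.00 over 6.

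Neurotrophic factor and receptor genes were higher in 10 of 17 over 8 arrays and in 8 of 17 over 6, with medians of 0.04 and -0.04. Gdnf, a survival factor of dopaminergic neurons, stood at 5.84 and 5.86 in MPTP mice against 6.10 and 5.72 in acupoint mice, near the brightness filter. Bdnf stood at 5.81 and 6.58 and 6.58 and 6.45, with MPTP mouse 1 the low one. Ngfr, the low-affinity neurotrophin receptor, was lower without overlap (-0.26 ± 0.12). Neuropeptide genes were lower in 8 of 11 (median -0.11 over 8 arrays and -0.21 over 6), among them Grp (-0.34 ± 0.15) and Nts, the neurotensin precursor (-0.52 ± 0.31), each below all 6 other arrays. The cholecystokinin gene Cck, made by thalamic relay neurons, was higher at 10.81 and 11.38 and 11.61 and 11.50. Genes of monoamine breakdown and Parkinson disease had a median of -0.01 over 8 arrays and 0.00 over 6. Maob, the enzyme that converts MPTP, stood at 10.72 and 9.10 and 9.46 and 9.84, and Fbxo7, a Parkinson disease gene, was lower (-0.32 ± 0.13), below all 6 other arrays.

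Lists of mitochondria and translation followed MPTP mouse 1. Complex I genes were higher in 27 of 34 over 8 arrays (median 0.22) and in 9 of 34 over 6 (median -0.08). Cytosolic ribosome genes were higher in 33 of 49 over 8 arrays (median 0.21) and in 7 of 49 over 6 (median -0.07). The list levels of complex I were -0.47 and 0.22 in MPTP mice against 0.15 and 0.14 in acupoint mice, and those of the ribosome -0.46 and 0.14 and 0.06 and 0.07. Without overlap, 2 complex I genes were higher and 2 lower, and 1 ribosome gene was higher and 7 lower. For all genes tested these shares were 14.8% higher and 12.9% lower. Heat shock and unfolded protein genes were higher in 20 of 23 (median 0.27, 8 without overlap) and in 16 of 23 over 6 arrays (median 0.08). Their list level was -0.479 and 0.01 in MPTP mice against -0.025 and 0.264 in acupoint mice. The median was 0.421 without MPTP mouse 2, 0.476 without acupoint mouse 1 and 0.139 without acupoint mouse 2. Hspb1, a small heat shock protein, stood at 7.45 and 7.37 in control mice, 5.75 and 6.90 in MPTP mice, 7.0 and 7.45 in acupoint mice and 6.24 and 6.87 in non-acupoint mice. Hspa1a, the inducible HSP70, stood at 6.29 and 6.79 in MPTP mice against 6.98 and 7.47 in acupoint mice, below the controls at 7.79 and 7.60. The chaperone Hsp90aa1 overlapped, at 0.05 ± 0.12.

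Antioxidant and glutathione genes were higher in 14 of 22 over 8 arrays and in 7 of 22 over 6, with medians of 0.17 and -0.05. Gss, glutathione synthetase, was higher at 7.36 and 7.89 in MPTP mice against 8.26 and 8.16 in acupoint mice. Hmox1, haem oxygenase, was lower at 6.49 and 6.64 and 6.11 and 6.17. Gpx3, the secreted glutathione peroxidase, stood at 8.26 and 8.17 in control mice, 7.81 and 7.50 in MPTP mice, 6.50 and 7.07 in acupoint mice and 8.59 and 7.57 in non-acupoint mice, below all 6 other arrays in acupoint mice (-0.87 ± 0.36). Of 12 glucocorticoid response genes, 8 were lower (median -0.09 over 8 arrays and -0.15 over 6), with Fkbp5, a sensor of that hormone, at 8.56 and 8.73 and 8.55 and 8.12. Sgk1 stood at 9.73 and 10.14 and 9.41 and 9.82. The metallothionein gene Mt2 stood at 8.79 and 12.37 and 12.14 and 12.09, a difference of 1.53 ± 1.34, or -0.25 over 6 arrays, that came from MPTP mouse 1 alone. Circadian clock genes had medians of -0.13 over 8 arrays and 0.13 over 6. Cry1 lay above all 6 other arrays (0.24 ± 0.13), and Per1 was lower without overlap (-0.40 ± 0.23, or -0.07 over 6 arrays).

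**Figure D5:**
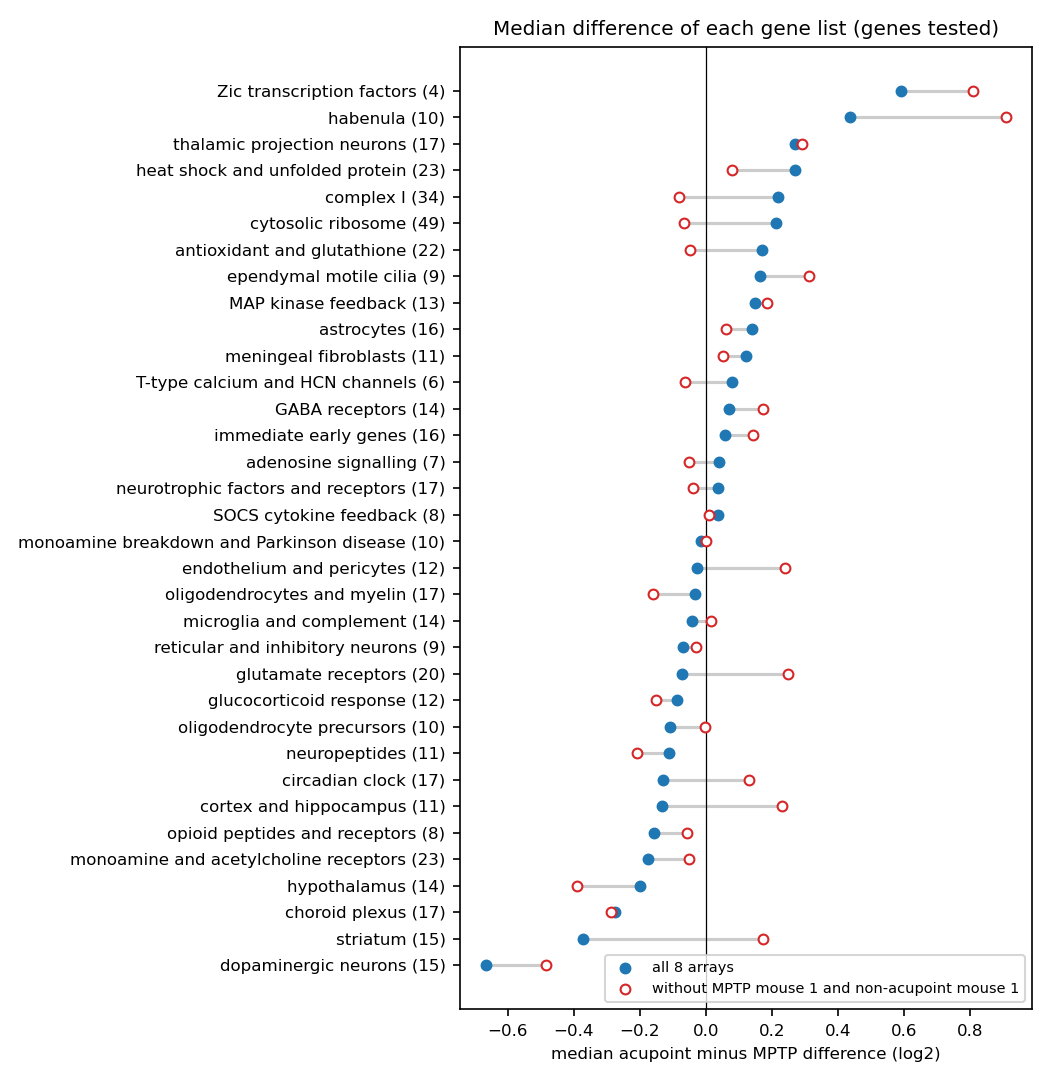
The median acupoint minus MPTP difference (x axis, log2) of each of the 34 gene lists (rows, with the number of genes tested), over all 8 arrays (filled) and without MPTP mouse 1 and non-acupoint mouse 1 (open). Zic, habenula and thalamic lists are above 0 and dopaminergic, hypothalamic and choroid plexus lists below 0 in both, while complex I, ribosome, antioxidant, striatum and cortex lists lie on opposite sides of 0.

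Other genes of smallest unadjusted p belong to none of the lists. Sestd1, a phospholipid-binding regulator, stood at 8.25 and 8.24 in MPTP mice, 8.94 and 8.77 in acupoint mice and 8.61 and 8.72 in non-acupoint mice. Adamts15, a matrix protease gene, had the same order at 6.28 and 6.32, 6.79 and 6.92 and 6.58 and 6.69. Iyd, an iodotyrosine deiodinase gene, was higher by 0.50. Both needled groups thus lay above both MPTP mice in these 3 genes, with the acupoint mice the higher. Among lower genes, Ceacam2, a cell adhesion gene, stood at 6.03 and 5.84 and 5.20 and 5.16, the last values under the brightness filter. Nxph4, a neurexin ligand, stood at 6.60 and 6.92 and 5.70 and 6.20. Leprot (-0.74 ± 0.19), Serpind1 (-0.46 ± 0.13), the chromatin protein gene Hmgn2 (-0.85 ± 0.25, or -0.47 over 6 arrays), the glutathione transferase gene Gstt2 (-0.46 ± 0.14) and the transcription factor gene Npas3 (-0.56 ± 0.17) also lay below all 6 other arrays. The mitochondrial carrier gene Slc25a13 stood at 7.97 and 7.85 and 7.48 and 7.13, with controls lower still in mean.

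The largest differences without overlap were uneven within the MPTP group. Slc8a1, the sodium-calcium exchanger, stood at 6.41 and 8.77 in MPTP mice against 9.04 and 8.97 in acupoint mice, a difference of 1.41 ± 0.92 over 8 arrays and 0.23 over 6. Nrn1, neuritin, stood at 8.87 and 11.00 and 11.15 and 11.01. The small RNA genes Rny1 (7.35 and 9.59 and 9.72 and 9.60) and Snord22 (5.78 and 7.61 and 7.70 and 7.78) had the same form. In these 4 genes the difference from MPTP mouse 2 alone lay between 0.07 and 0.23. Kcng3, a potassium channel subunit gene, at 8.22 and 6.20 and 5.88 and 6.01, Ms4a4a, at 7.53 and 5.72 and 5.48 and 5.46, and Plcxd3, at 8.91 and 7.51 and 6.89 and 7.23, had MPTP mouse 1 high. Nmbr and Opn3 differed from both MPTP mice. Nmbr stood at 6.09 and 6.28 in MPTP mice against 6.88 and 7.73 in acupoint mice (1.12 ± 0.42), with non-acupoint mice at 5.91 and 7.06. Opn3, an opsin expressed in brain, stood at 7.21 and 7.86 and 8.48 and 8.71 (1.06 ± 0.34), with non-acupoint mice at 7.79 and 8.71. Nova1, a splicing regulator of neurons, was lower, at 10.55 and 9.34 and 8.88 and 8.58, below all 6 other arrays.

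The site of needling was examined by setting acupoint against non-acupoint mice. No probe set passed over the 8 arrays (0%, smallest adjusted p = 0.0522, limma with Benjamini-Hochberg adjustment), and 299 (1.89%) had an unadjusted p under 0.05. For the genes with the smallest p against MPTP, the differences from non-acupoint mice were 2.25 for Gpr151, 1.15 for Tmem212, 1.12 for Cldn1, -0.93 for Nxph4 and -0.62 for Ntsr1. They were 0.18 for Spry4, 0.19 for Sestd1, 0.15 for Adcy8 and -0.08 for Slc25a13. The non-acupoint levels of Gpr151 lie under the brightness filter. Slc6a3 differed by -1.15, Slc18a2 by -1.29 and Th by -0.97, with both acupoint mice below both non-acupoint mice in each. Thalamic projection neuron genes had a median of 0.18 and habenula genes of 0.76 against non-acupoint mice. These differences are over 8 arrays only and include non-acupoint mouse 1, which stood apart. Between the 2 non-acupoint mice, 1075 probe sets lay at least 2-fold apart.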

How the data were processed

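Per the labels' protocols, 300 ng of total RNA from the thalamic tissue of each brain was labelled and hybridised to an Affymetrix whole-transcript array. The submitters' processing notes name Expression Console, Affymetrix's own software, and RMA, a method of background correction, quantile normalization and summary over probes. The values the authors deposited are log2 levels, between 0.818 and 14.159 with array medians of 6.179 to 6.287. The version of either tool, and any filter, was not given in the sources used here. RMA draws arrays to a common distribution and compresses differences of dim probe sets. No detection calls were used, and the number of arrays limits the precision.

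Probe sets were named through the platform annotation. Of 35557, 21789 had 1 symbol, 1621 had several and 12147 were unnamed here. The dimmest 40% by mean of the 8 arrays and the unnamed were left out, which left 15791 for 13524 genes. Gene lists use the brightest probe set of a gene and hold 592 symbols, of which 526 were on the array and 499 tested. With R 4.3.3 and limma 3.58.1, group means were fitted to all 8 arrays (lmFit, eBayes, 4 residual and 2.53 prior degrees of freedom), with Benjamini-Hochberg adjustment of two-sided p-values over all 15791. A p-value here sets a difference against a spread pooled over the 4 groups and moderated across probe sets. With 2 mice a group, that spread rests on few samples.

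The members and gene lists were chosen with earlier results of these data known. Genes were named by rule, namely the 12 higher and 12 lower of smallest unadjusted p among those at least 1.3-fold different without overlap, the next 6 and 6 by size of difference, up to 4 of smallest p in each list, 12 genes in every case, and those past the threshold over 6 arrays. Other genes named were chosen after their values were seen. Promoters are RefSeq sequences on GRCm38.p6. Alternatives are another normalization, filter, moderation, block or set of arrays, 19 planned and 1 added after seeing the data. In the labels the mice of each group carry the numbers 1 and 2. Deviations of same-numbered mice from their group means correlated across probe sets at r = -0.282 between MPTP and acupoint, 0.822 between MPTP and non-acupoint and 0.19 between control and MPTP. The other 3 pairs of groups lay between -0.159 and 0.077, and the numbers were not used as pairs.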

Additional observations from a re-analysis of the deposited data

How the results depend on the processing

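The count of probe sets past the adjusted threshold was 0 under every alternative run except without MPTP mouse 1 and non-acupoint mouse 1, where it was 3 (Slc6a3 at -3.30, Th at -2.66 and Chrna6 at -1.75 on the log2 scale, limma). The count at an unadjusted p under 0.05, 216 over 8 arrays, was 399 with no brightness filter, 135 with the filter at the dimmest 60%, 81 with array weights, 102 with the 4 arrays alone and 2436 without the 2 arrays. Of these counts, 49.1% were higher in acupoint mice over 8 arrays, 39.8% with no filter, 60.7% with the 60% filter, 66.7% with the 4 arrays alone and 64.9% without the 2 arrays. Leaving out each mouse in turn gave 62 (without acupoint mouse 2) to 4133 (without MPTP mouse 2, when the array that stood apart is the whole MPTP group), 378 without MPTP mouse 1, 78 without either control, 80 without acupoint mouse 1 and 392 without either non-acupoint mouse. With the mouse number as a replicate block the unadjusted count was 339 and the adjusted count 0. With the numbers crossed between the MPTP and acupoint groups, added after seeing the data, they were 385 and 0. Without the 2 arrays the MPTP group is MPTP mouse 2 alone. Both counts of that fit leave out the spread between MPTP mice. The genes past its adjusted threshold thus rest on 1 MPTP mouse and cannot decide whether the groups differ.

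Of 34 list medians, 8 kept within 1 SD under all alternatives. Without the 2 arrays those that moved further were habenula 0.909, cortex and hippocampus 0.231, endothelium and pericytes 0.239, oligodendrocyte precursors -0.002, immediate early genes 0.141, Zic transcription factors 0.81, circadian clock 0.132, GABA receptors 0.173, glutamate receptors 0.249, T-type calcium and HCN channels -0.063, opioid peptides and receptors -0.056, adenosine signalling -0.05, monoamine and acetylcholine receptors -0.052, cytosolic ribosome -0.065. With the filter at the dimmest 60% they were ependymal motile cilia -0.197, meningeal fibroblasts -0.032, oligodendrocyte precursors -0.223, immediate early genes -0.032, opioid peptides and receptors -0.412, adenosine signalling 0.175, monoamine and acetylcholine receptors 0.116, and with cyclic loess monoamine breakdown and Parkinson disease -0.071. Over the leave-one-out fits the ranges were thalamic projection neurons 0.232 to 0.357, habenula -0.145 to 0.909, dopaminergic neurons -0.665 to -0.104, monoamine breakdown and Parkinson disease -0.062 to 0.104, hypothalamus -0.39 to 0.131, striatum -1.055 to 0.173, cortex and hippocampus -0.692 to 0.231, choroid plexus -0.575 to -0.038, ependymal motile cilia -0.252 to 0.47, endothelium and pericytes -0.214 to 0.239, oligodendrocytes and myelin -0.16 to 0.226, oligodendrocyte precursors -0.166 to 0.042, immediate early genes 0.057 to 0.191, MAP kinase feedback 0.149 to 0.268, SOCS cytokine feedback 0.011 to 0.116, Zic transcription factors 0.368 to 0.81, circadian clock -0.275 to 0.132, GABA receptors 0.031 to 0.173, glutamate receptors -0.312 to 0.249, T-type calcium and HCN channels -0.063 to 0.156, opioid peptides and receptors -0.156 to -0.056, adenosine signalling -0.05 to 0.095, monoamine and acetylcholine receptors -0.262 to -0.04, complex I -0.081 to 0.549, cytosolic ribosome -0.065 to 0.491. Among 147 named genes 121 kept their sign under every alternative run. Many alternatives change only the error or leave out a control or non-acupoint mouse, and cannot move a difference. Genes named for groups that do not overlap cannot turn when 1 mouse is left out. The count of 121 was thus partly fixed in advance and is no measure of robustness. The sign turned in Hsp90aa1 with cyclic loess (-0.021) and in Egr1 with quantile normalization (0.001). Without the 2 arrays it turned in Bdnf -0.069, C1qa -0.002, Drd1 0.415, Drd2 0.173, Egr1 0.048, Hcn2 -0.114, Lmx1b -0.192, Maob 0.553, Mt2 -0.251, Penk 0.394, Pitx3 -0.26, Spry2 0.256, Tcf7l2 0.154, Ttr -0.204. Over the leave-one-out fits the genes that turned were Aif1 -0.003 to 0.167, Bdnf -0.069 to 0.706, C1qa -0.002 to 0.633, Chrna3 -0.45 to 1.317, Chrnb4 -0.243 to 0.746, Drd1 -1.156 to 0.415, Drd2 -1.629 to 0.173, Egr1 -0.062 to 0.048, Etv4 -0.27 to 0.145, Gdnf -0.13 to 0.254, Gfap -0.154 to 0.053, Hcn2 -0.114 to 0.74, Hcrt -2.605 to 0.254, Hsp90aa1 -0.008 to 0.104, Lmx1b -0.192 to 0.358, Maob -1.066 to 0.553, Mt2 -0.251 to 3.32, Nr4a2 -0.13 to 0.334, Penk -2.765 to 0.394, Pitx3 -0.26 to 0.507, Pmch -2.416 to 0.561, Spry2 -0.262 to 0.256, Tac2 -0.298 to 1.345, Tcf7l2 -0.298 to 0.154, Ttr -0.204 to 0.535, Zic5 -0.312 to 1.287. The cause of these changes was not tested. Levels near 5.63 limit what the dim genes, such as Chrna6, Gpr151, Htr1d and Ceacam2, can show.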

Other observations

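Both acupoint arrays lay above all 6 other arrays in 596 probe sets (3.77%) and below all 6 in 631 (4%). The genes named here were chosen after their values were seen, by the size of the gap to the nearest other array, and carry no test. Nptx2, a secreted pentraxin that gathers AMPA receptors at synapses, stood at 7.58 and 7.22 in control mice, 7.74 and 7.71 in MPTP mice, 8.17 and 8.15 in acupoint mice and 7.65 and 7.66 in non-acupoint mice. Slitrk6, a synaptic adhesion gene of thalamus, stood at 7.91 and 7.40 in MPTP mice against 8.24 and 8.26 in acupoint mice, with controls at 7.24 and 7.02. Shank3, a scaffold of excitatory synapses, stood at 9.01 and 9.31 and 9.67 and 9.58, and Syt9, a calcium sensor of vesicle release, at 9.37 and 9.30 and 9.69 and 9.72. The copine gene Cpne9 stood at 9.40 and 9.82 and 10.11 and 10.10. Syt9 and Shank3 also stood above both controls in both MPTP mice, with controls at 8.72 and 8.69 and 8.38 and 8.43.

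On the lower side, Dlk1, a Notch-related gene of hypothalamic and midbrain neurons, stood at 8.96 and 8.85 in control mice, 7.79 and 8.40 in MPTP mice, 7.31 and 7.30 in acupoint mice and 8.57 and 8.06 in non-acupoint mice. The acupoint mice were even and lowest, and the difference was -0.79 ± 0.25. Gpr101, an orphan receptor of hypothalamic neurons, stood at 6.89 and 6.80 in MPTP mice, 6.11 and 6.51 in acupoint mice and 7.41 and 7.46 in controls. Frmpd3 stood at 7.30 and 6.84 and 6.33 and 6.50. The hypothalamic list level was -0.63 and 0.20 in MPTP mice against -0.75 and -0.16 in acupoint mice, and the part of that tissue in the values of Dlk1 and Gpr101 was not tested.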
